A study of Mus musculus with 42 samples.

Results

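Aurka, Bub1, Plk1, Birc5, Kif11, Top2a, Cdk1 and Mki67 are 8 genes of the G2 and M phases of the cell cycle, and their transcripts were followed across 21 mouse mammary tumours. Their probes were found by gene symbol in the annotation of the array platform, after older symbols had been brought up to date. This gave 9 of the 22800 probes on the array. There was 1 probe for each gene and a second one for Plk1. All 8 genes passed the filter on missing values, out of 7629 genes that did. The second Plk1 probe, number 15564, did not pass, because only 9 tumours had a value on both of its arrays, and it was left out.

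The tumours descend from mammary neoplasms of mice that carry a c-Myc transgene, FVB/N-Tg(WapMyc)212Bri, in which the promoter of the whey acidic protein gene drives Myc in mammary epithelium. All 21 tumours share this origin. Per the labels, in vivo selection gave lines with a glandular pattern, with a solid or comedo pattern that did or did not go with lung metastases, and with a spindloid pattern. The labels used here do not tie a tumour to a line, so the tumours were compared one by one, by the number in their names. Every tumour was hybridised on 2 two-colour arrays of opposite dye orientation against one pool of mouse RNA, called the reference below, which makes 42 arrays. No normal mammary gland and no separate control group was analysed here.

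Entry into mitosis is driven by Cdk1 bound to B-type cyclins, and Plk1 and Aurora A, the product of Aurka, help to switch this complex on and to build the spindle. Kif11 pushes the spindle poles apart, Top2a untangles sister chromatids, Bub1 holds back anaphase until every kinetochore is attached, and Birc5 belongs to the chromosomal passenger complex that corrects faulty attachments. Mki67 coats mitotic chromosomes and is the gene behind the Ki-67 stain that pathologists use to count cycling cells. Transcripts of such genes build up late in the cell cycle. Much of this timing is set by repression in resting cells through the DREAM complex, which reads short promoter elements called CHR, and by the factor NF-Y, which binds CCAAT boxes. In a bulk tumour, fewer cycling cells and less transcript per cycling cell cannot be told apart.

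Promoters of 5 of the genes are printed because they show how these elements are laid out in genes whose levels are compared here. The sequences are RefSeq's, from mouse build GRCm38.p6, and run 5′ to 3′ along the gene's own strand from 250 bases before the gene's start to 50 bases after it. Capitals mark 2 kinds of match. The first is the CHR, with the letters TTTGAA, on the other strand read as TTCAAA, and as a variant the palindrome TTTAAA. The second is the CCAAT box, which on the other strand reads ATTGG. Both strands were searched, and no match of one kind overlaps one of the other in the promoters shown.
Aurka, chr2:172370521-172370820, minus strand: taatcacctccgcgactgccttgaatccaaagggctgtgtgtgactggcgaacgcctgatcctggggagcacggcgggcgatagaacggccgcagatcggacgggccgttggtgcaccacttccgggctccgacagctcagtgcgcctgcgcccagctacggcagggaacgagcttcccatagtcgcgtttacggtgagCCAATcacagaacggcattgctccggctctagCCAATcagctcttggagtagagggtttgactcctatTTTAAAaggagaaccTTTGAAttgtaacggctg
Bub1, chr2:127831810-127832109, minus strand: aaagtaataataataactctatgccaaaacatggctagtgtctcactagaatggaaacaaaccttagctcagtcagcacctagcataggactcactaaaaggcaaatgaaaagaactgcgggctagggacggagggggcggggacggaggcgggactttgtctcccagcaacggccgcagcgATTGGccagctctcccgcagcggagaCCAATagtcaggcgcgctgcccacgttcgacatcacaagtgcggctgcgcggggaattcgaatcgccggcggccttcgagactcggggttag
Plk1, chr7:122159185-122159484, plus strand: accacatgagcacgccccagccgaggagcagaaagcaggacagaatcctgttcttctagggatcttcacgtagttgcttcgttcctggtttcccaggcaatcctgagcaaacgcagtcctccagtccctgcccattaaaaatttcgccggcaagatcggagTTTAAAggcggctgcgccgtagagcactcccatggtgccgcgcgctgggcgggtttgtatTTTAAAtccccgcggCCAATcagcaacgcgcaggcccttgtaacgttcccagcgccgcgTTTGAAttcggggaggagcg
Cdk1, chr10:69352863-69353162, minus strand: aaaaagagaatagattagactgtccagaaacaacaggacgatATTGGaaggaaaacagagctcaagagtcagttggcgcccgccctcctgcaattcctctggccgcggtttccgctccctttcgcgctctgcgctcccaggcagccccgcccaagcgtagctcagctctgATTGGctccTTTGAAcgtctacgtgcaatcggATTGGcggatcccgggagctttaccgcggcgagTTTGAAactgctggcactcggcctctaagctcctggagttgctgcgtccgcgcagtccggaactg
Top2a, chr11:99024140-99024439, minus strand: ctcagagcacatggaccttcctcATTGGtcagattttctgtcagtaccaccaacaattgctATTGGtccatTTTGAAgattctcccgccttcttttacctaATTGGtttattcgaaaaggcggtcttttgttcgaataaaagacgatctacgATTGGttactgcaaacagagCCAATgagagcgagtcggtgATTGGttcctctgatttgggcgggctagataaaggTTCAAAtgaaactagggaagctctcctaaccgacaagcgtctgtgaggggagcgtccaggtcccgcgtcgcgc

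A CHR match lay in the windows of 7 of the 8 genes (87.5%), all but Bub1, against 27.6% of the 32851 mouse promoters of the same length. A CCAAT box lay in 7 of the 8 windows as well, all but that of Birc5, against 37.4% of all promoters. The Cdk1 window held its matches TTTGAA at -71 and -15 and boxes at -208, -80 and -48, counted to the first base of each match from the start of the gene, which is +1. The Top2a window held 6 CCAAT boxes, and 11.7% of all promoters held 2 or more. In Plk1 a CHR match lay on either side of the box at -14, at -29 and at 31. These are matches of letters and were not tested for binding. Other letter forms were not searched, so the lack of a CHR match in Bub1 holds for the letters given only.

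All levels below are log2 ratios of tumour to reference RNA. Both arrays of each tumour were given the same direction, every array was centred on its median over 4226 probes measured on all 42 arrays, and both arrays were averaged. A level of 0 therefore means the same ratio as the middle of those probes. The files do not state which dye held the tumour. The sign common to all arrays was set so that Myc, the transgene, was mostly above 0, and it is likely but not settled. With the sign turned, every level changes sign and high and low tumours change places, while correlations between genes keep their values. Levels of different genes come from different probes, so no gene's level was ranked against another's. Differences from the Gapdh control spots are given below as descriptions of how closely values move together.

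Because both arrays of a tumour carry the same RNA, the error in the tests is that of labelling and hybridisation, and the p-values say whether tumours differ beyond it. They say nothing about the spread between animals of a line. Between 8600 and 21328 probes had a value on an array, and 24.1% of all cells of the table were empty. The number of arrays and the depth of signal limit the precision. Before turning, the 2 arrays of a tumour correlated between -0.565 and 0.0743 over all probes, and 20 of the 21 pairs were below 0. The exception was tumour 656. The call of Birc5, its relation to Aurka and the third slide run are also described without it. Other values in tumour 656 are given as measured. The titles fall into 4 runs of running numbers, called slide runs here, of 2, 7, 13 and 20 arrays. Both arrays of 2 tumours lay in the second run, of 5 in the third and of 8 in the fourth, and 6 tumours were split between runs.

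By limma's moderated F test across the tumours, with Benjamini-Hochberg adjustment over all 7629 genes, 5 of the 8 genes differed between tumours at an adjusted p under 0.05. These were Aurka, Birc5, Plk1, Cdk1 and the probe annotated to Kif11, which reads like control spots as described below. Without that probe it was 4 of 7 genes (57.1%). Over all genes tested, 42.5% passed the same test, and the share of 62.5% among 8 genes lies less than 2 genes above that. Bub1, Top2a and Mki67 did not pass. At an unadjusted p under 0.05, 6 of the 8 and 52.2% of all genes passed. The median gene of the 8 had a range of 1.94 between its highest and lowest tumour, against 2.75 for the median of all genes, and an array-to-array SD within tumours of 0.323, against 0.620 for all genes. Only Aurka and the Kif11 probe kept their calls in every alternative in which they were tested. When each array was centred on the median of all its measured probes, Birc5, Plk1 and Cdk1 did not pass (adjusted p of 0.0649, 0.237 and 0.0601, limma), beside 27.0% of all genes. Aurka and the Kif11 probe, 2 of 8, also passed with quantile normalization, beside 22.1% of all genes, and with slide run as a block, beside 30.5%. With the values as deposited, not centred, 6 of the 7 members other than Kif11 passed, beside 45.1% of all genes.

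**Figure D1:**
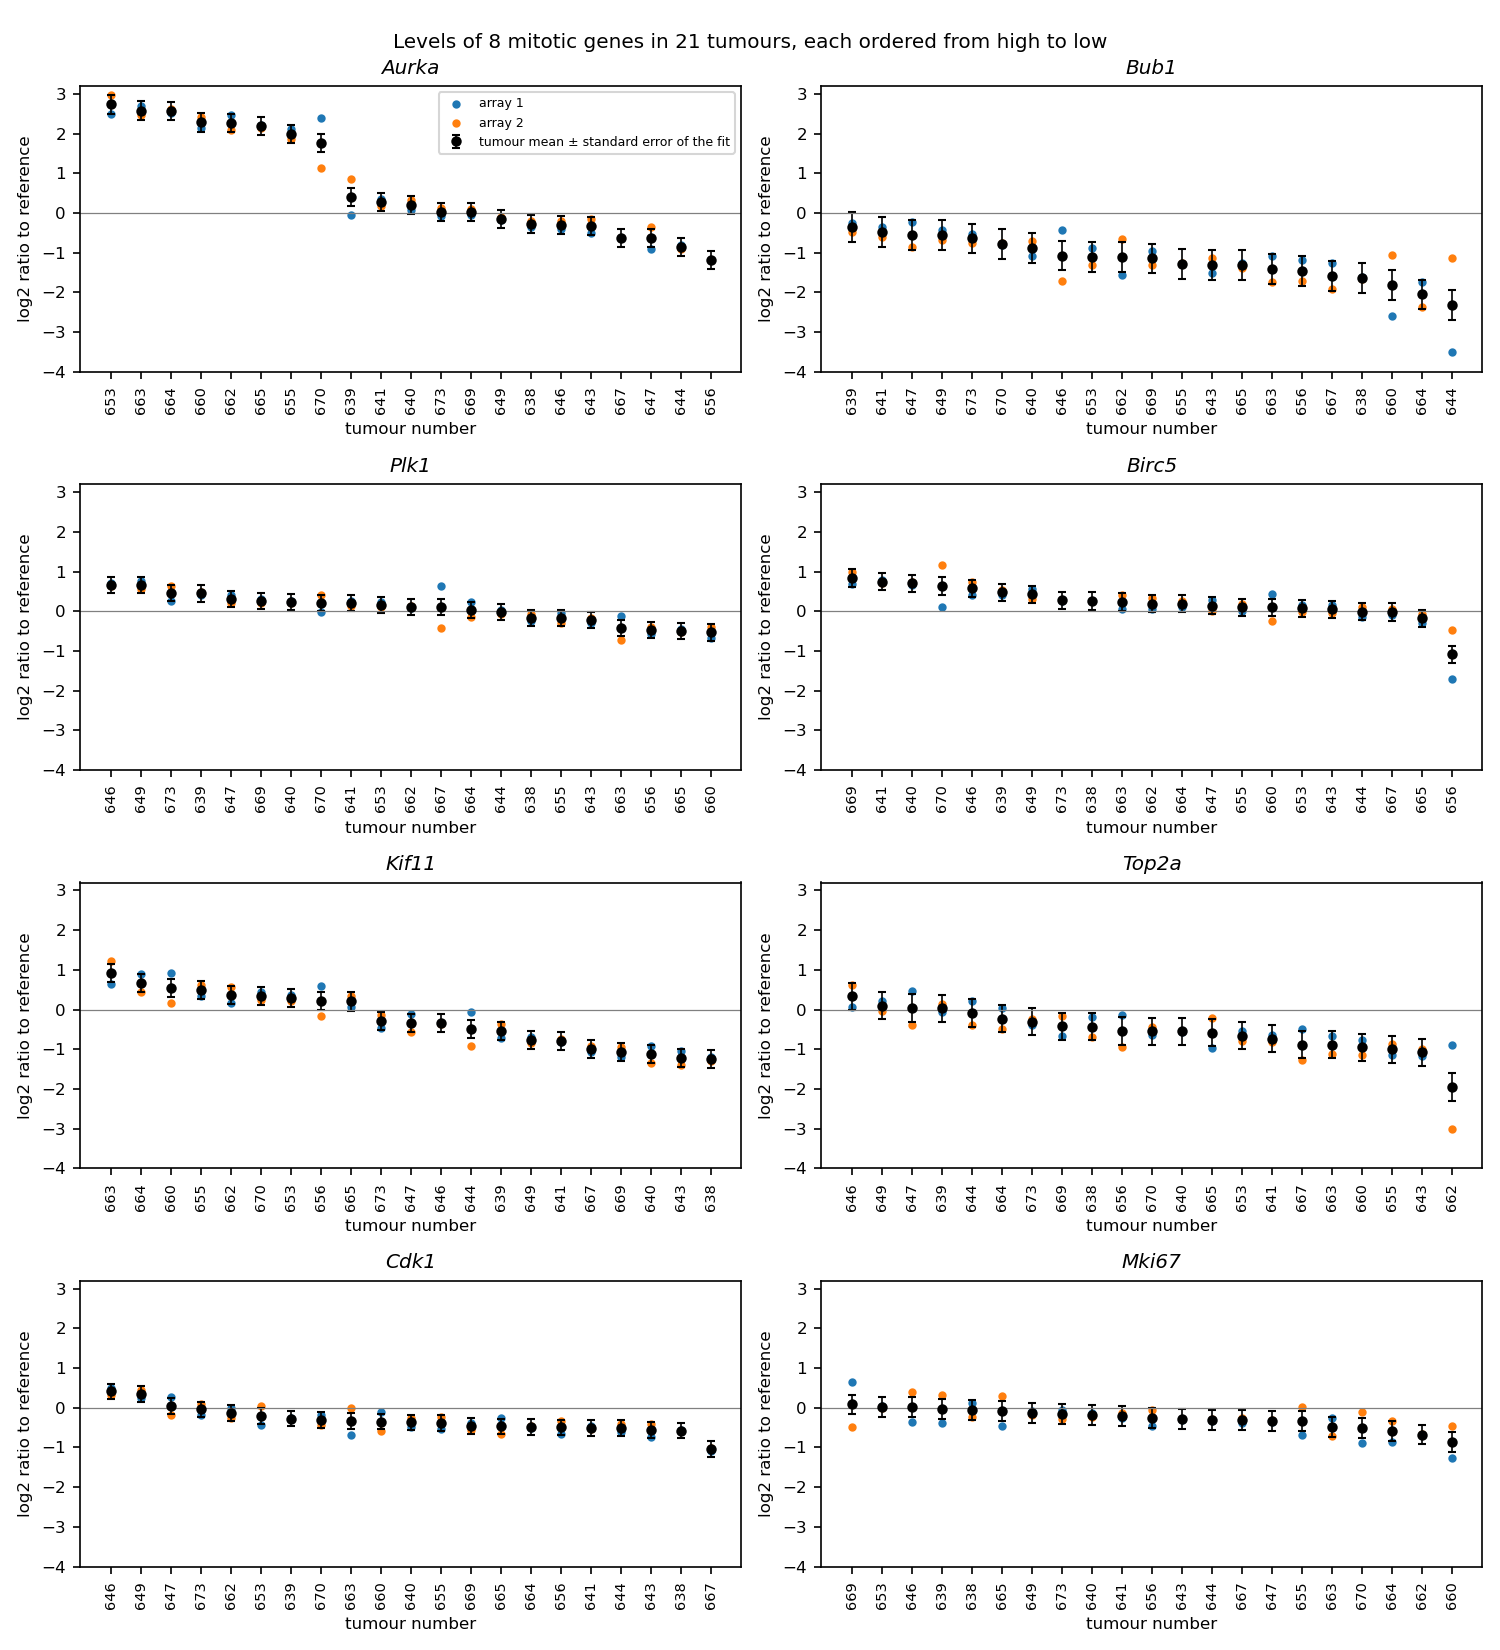
Levels of the 8 genes in 21 tumours, 1 panel a gene, with tumour numbers on the x axis from the highest to the lowest tumour and the log2 ratio to reference on the y axis. Coloured points are the 2 arrays, black points the tumour mean with the standard error of the fit; Aurka has its step after the eighth tumour (a gap of 1.35), Birc5 has tumour 656 apart at the lower end (0.91), and the Kif11 probe has a smaller step after the ninth tumour (0.50).

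Aurka, the kinase that matures centrosomes and shapes the spindle, had the widest spread of the 8 genes. Its level was 2.73 in tumour 653, the highest, 0.21 in the median tumour and -1.18 in tumour 656, the lowest (SE of a tumour mean 0.23, 2 arrays each). The tumours fell into a high and a low set with nothing between. The high set held 653, 663, 664, 660, 662, 665, 655 and 670, at 2.73, 2.58, 2.57, 2.28, 2.27, 2.18, 1.99 and 1.76. In the low set, tumour 639 came first at 0.40, and 12 tumours lay at 0.27 or below. The gap between 670 and 639 was 1.35, over 4 times the array SD of 0.324, whereas the other 19 steps between neighbours in the order were smaller than that SD.

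Both arrays of every high tumour stood above both arrays of every low one. The closest approach was tumour 670, whose arrays read 2.39 and 1.12, to tumour 639, whose arrays read -0.04 and 0.85. The F value was 33.2 with an adjusted p of 1.6e-09 (limma). Of 190 contrasts between 2 tumours measured on both arrays, 106 passed an adjusted p of 0.05 with a difference of at least 1, which is 55.8%. The same rule called 7.79% of all genes and contrasts. As the sets were made by the gap, all 96 contrasts across it passed. Within a set 10 of 94 did. Tumour 667 had 1 array with a value and entered no contrast.

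The high set was not spread evenly over the slide runs. Tumours 653, 655, 662 and 663 had both arrays in the third run, 660, 664 and 665 had 1 array in the third and 1 in the fourth, and 670 had both in the fourth. In the third run, tumour 656 read -1.18 beside 4 tumours between 1.99 and 2.73. Without 656, whose arrays agree least, every tumour with an array in that run was in the high set. In the fourth run, tumour 670 read 1.76, against 0.27 or lower in the other 7 tumours. With slide run as a block in the fit Aurka still passed, and its adjusted p lay between 1.5e-09 and 7.9e-07 over the 12 alternatives in which it was tested (limma). The part of the slide run in the pattern was not tested further.

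The genes whose levels followed Aurka most closely were its neighbours on chromosome 2. Over the 21 tumours, Cstf1, a subunit of the complex that cleaves pre-mRNA ahead of polyadenylation, had the highest Pearson r with Aurka of all genes tested, at 0.967. Pfdn4, a subunit of the prefoldin chaperone, had 0.965, and Rtf2, a replication termination factor, had 0.957. These 3 genes were the only ones at 0.95 or more. With the tested genes put in chromosome order, Cstf1 and Rtf2 are 1 and 2 places from Aurka on one side and Pfdn4 is 3 places away on the other. These correlations are descriptions over points that share arrays, and the low and high sets carry most of them. Within the 13 low tumours r was 0.769 for Cstf1, 0.752 for Pfdn4 and 0.616 for Rtf2. Within the 8 high tumours it was 0.484, 0.0838 and 0.271.

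The 3 neighbours also passed the F test between tumours. They were picked by their likeness to Aurka, so this and their shared highest tumours follow in part from that choice. Cstf1 was highest in tumour 660 at 3.30 and lowest in 656 at -1.65 (adjusted p 2.7e-07, limma). Pfdn4 was highest in tumour 670 at 3.25 and lowest in 644 at -0.21 (4.7e-08). Rtf2 was highest in 660 at 2.82 and lowest in 646 at -0.29 (5.8e-08). For all 3 genes the 8 highest tumours were the same 8 as for Aurka.

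**Figure D2:**
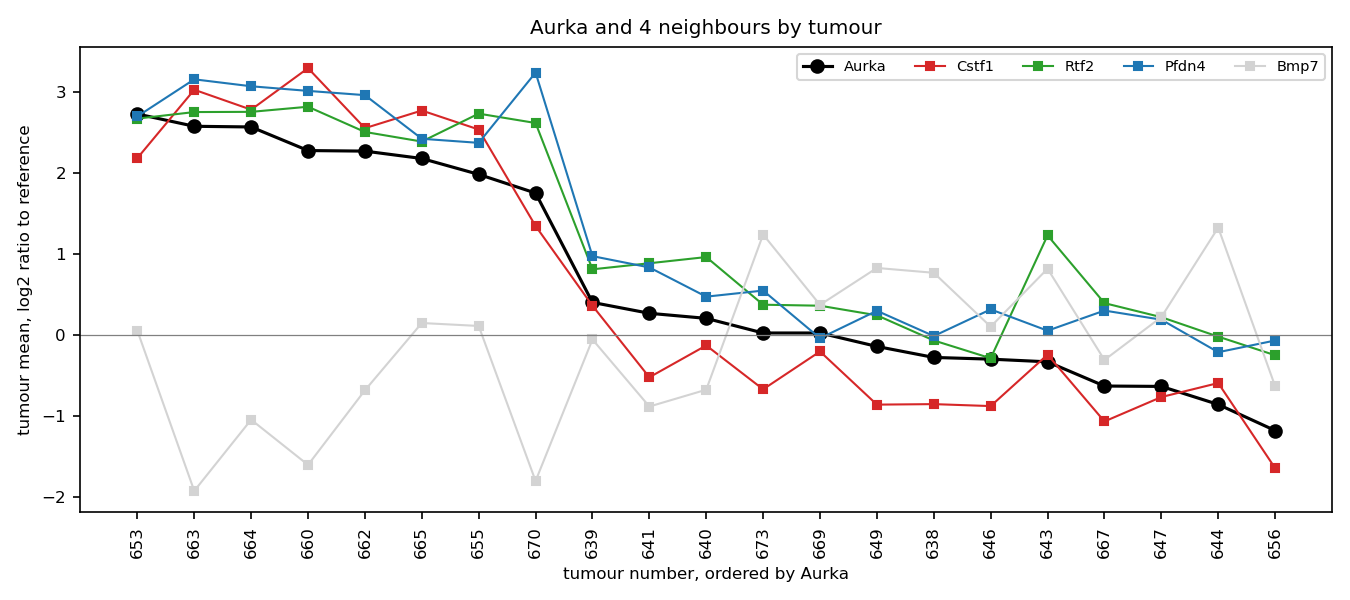
Tumour means of Aurka and 4 of its chromosome neighbours as log2 ratios to reference on the y axis, with the 21 tumours on the x axis in the order of Aurka. Cstf1, Rtf2 and Pfdn4 drop between the eighth and the ninth tumour as Aurka does, and Bmp7 does not.

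The likeness extended along a stretch of the chromosome. From Pfdn4, 3 places before Aurka, to Vapb, 11 places after it, 14 other genes were tested. Of these, 12 had an r of 0.6 or more with Aurka, 5 had 0.9 or more, and 11 shared 7 or 8 of its 8 highest tumours. By the F test, 12 of the 14 differed between tumours, all but Fam210b and 1700028P15Rik. Those at 0.6 or more include Rae1 (r of 0.919), which exports mRNA and helps to assemble the spindle, Vapb (0.920), which tethers membranes of the endoplasmic reticulum, Zbp1 (0.866), a sensor of Z-form nucleic acids, and Tfap2c (0.757), a transcription factor of the mammary lineage. The 2 genes of the stretch below 0.6 had negative values, Bmp7, a secreted growth factor, with -0.560 and 1700028P15Rik with -0.291.

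The ends of the stretch were placed where r fell, so low values just beyond them follow from that choice. The next tested gene beyond Vapb, Stx16, had an r of 0.126, and the next one before Pfdn4, Tshz2, had -0.09. Of the 16 other genes within 15 places of Aurka, 1 reached 0.6, Tmem189 at 0.671, and the lowest had -0.484. The median r with Aurka was 0.777 over its 10 nearest tested genes, -0.182 over the rest of the 581 tested genes of chromosome 2 and -0.188 over all genes. For the other 7 members the median r over their 10 nearest genes lay between -0.100 for Cdk1 and 0.300 for Plk1. Ordering by neighbours was added after the likeness of Cstf1, Pfdn4 and Rtf2 had been seen, so the stretch is a description with no test. DNA copy number was not analysed here.

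**Figure D3:**
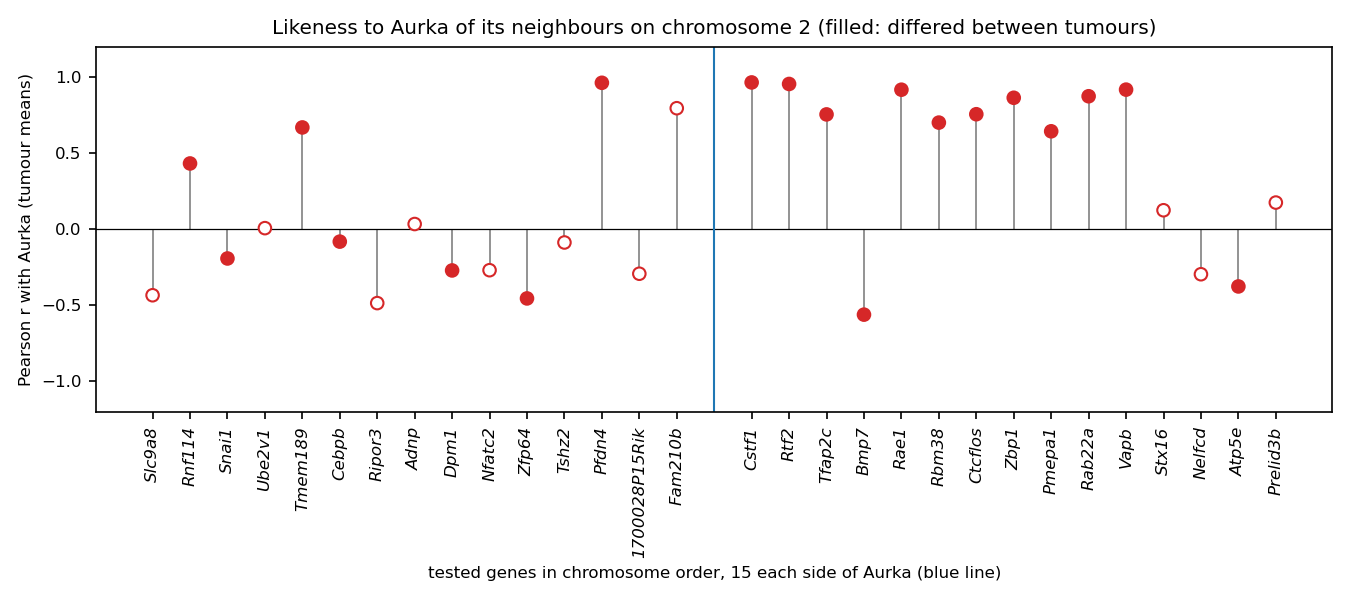
Pearson r with Aurka over tumour means on the y axis, for the 15 tested genes on either side of it in chromosome order on the x axis. Filled points mark genes that differed between tumours; from Pfdn4 to Vapb all but 2 genes lie at 0.6 or above, and outside this stretch only Tmem189 does.

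Aurka and Cstf1 lie head to head, on opposite strands, and the 300-base windows of their promoters share 68 bases. The Aurka window printed above has its CCAAT boxes at -51 and -19 and its CHR matches at 18 and 33. None of the 20 genes most like Aurka was in the list of other G2/M genes, and 7 of them were on chromosome 2. The 10 genes at 0.9 or more included Pgk1 and Ldha, enzymes of glycolysis that lie on other chromosomes (0.949 and 0.908), which are named here after their values were seen.

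A set of control spots moved in part with Aurka. The array carries 232 spots annotated to Gapdh, a glycolytic enzyme often used as a loading control, and 186 of them correlated at 0.95 or more with the mean of all of them. That mean was 1.23 in tumour 663, the highest, -0.29 in the median tumour and -1.42 in tumour 638, the lowest. It lay between 0.23 and 1.23 in the 8 tumours of high Aurka and between -1.42 and 0.03 in the other 13. Aurka correlated with it at 0.782 over all tumours, at 0.278 within the 8 and at -0.318 within the 13. Aurka minus Gapdh was 1.27 to 2.35 in the 8 tumours and -1.21 to 1.15 in the 13. The gap between the sets was then 0.127, below the array SD of 0.324, where it had been 1.35. The part of the control spots' shift in the Aurka pattern was not tested. Of the neighbours at 0.6 or more with Aurka, Ctcflos and Rab22a went closely with the control spots themselves (0.974 and 0.912). Ctcflos is above 0.95, as most Gapdh spots are, and is counted in the stretch above. Pfdn4 (0.850), Pmepa1 (0.833), Cstf1 (0.800), Vapb (0.762), Rae1 (0.756) and Rtf2 (0.753) moved with them about as Aurka did. Zbp1 and Tfap2c had 0.646 and 0.641, and Fam210b and Rbm38 had the least (0.473 and 0.304).

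The probe annotated to Kif11, the motor of bipolar spindles, read like the Gapdh control spots. Its level was 0.92 in tumour 663, -0.35 in the median tumour and -1.25 in tumour 638, with an F of 9.14 and an adjusted p of 2.3e-05 (limma). The highest and the lowest tumour were those of the Gapdh control spots. Over the 21 tumours it correlated with their mean at 0.982, the SD of the difference was 0.144, and the largest difference was 0.307. This spread is below the array SD of the probe, 0.322. It was 1 of 151 probes not annotated to Gapdh that reached 0.95 with that mean. The 3 genes most like it, Rsph9, Omt2b and Klk1b7-ps, reached 0.992, and 94 genes reached 0.95.

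None of the 20 genes most like the Kif11 probe was in the list of other G2/M genes. Its 69 called contrasts of 210 (32.9%) and its F test are therefore reported for the probe, number 13246, and not for the Kif11 transcript. What the probe binds was not tested. The files used here hold no probe sequence. Among the other G2/M genes, the probe of Ncapd2, a condensin subunit, behaved in the same way with 0.981. Such probes were 96 of the 7629 genes, and leaving them out left 41.3% of genes called, with the calls of the other 7 members as before.

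**Figure D4:**
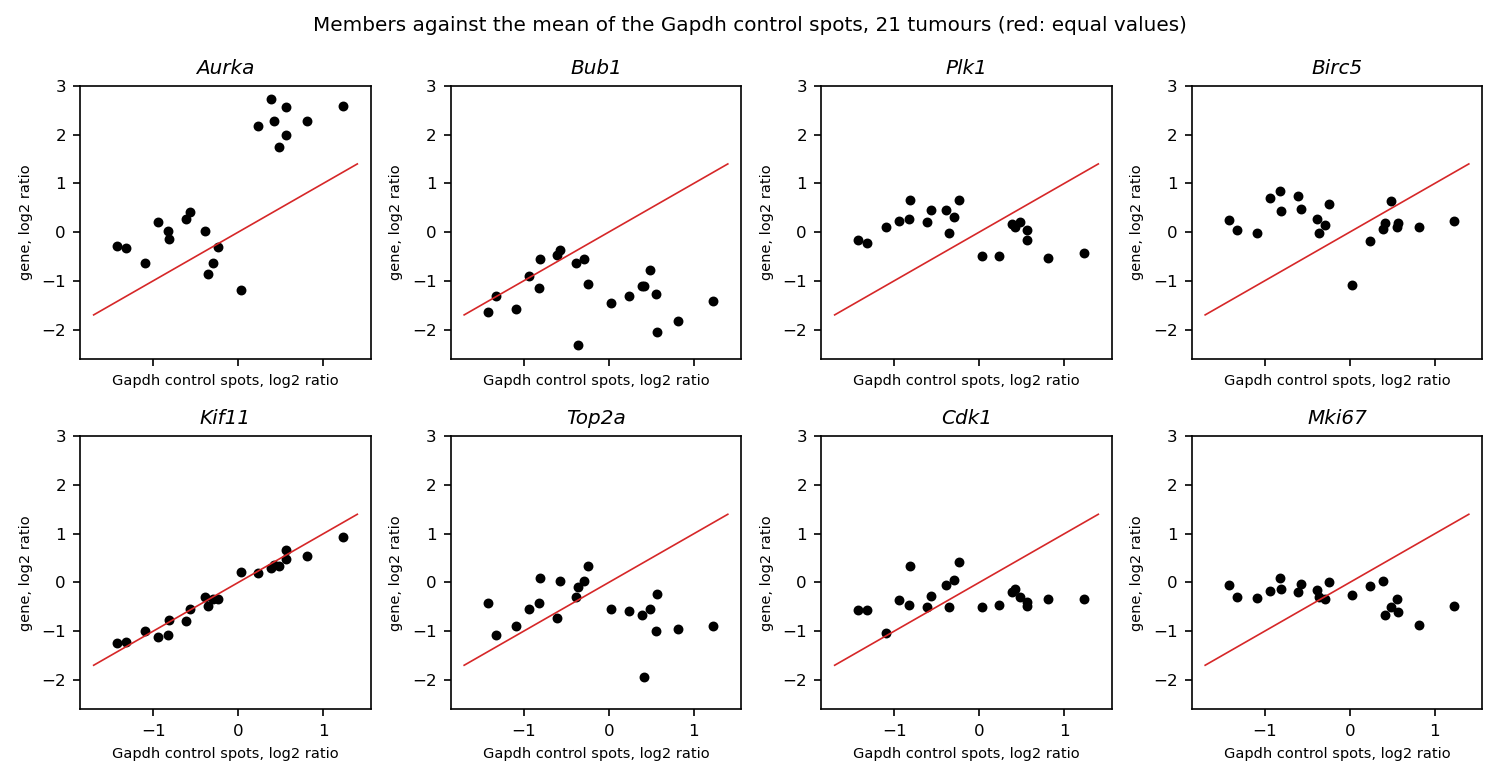
Each panel sets the tumour means of 1 gene, as log2 ratios on the y axis, against the mean of the Gapdh control spots on the x axis, 1 point a tumour and 21 tumours, with a red line where both are equal. The Kif11 points lie along the line, the Aurka points form 2 clouds, and the other genes show no such fit.

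Plk1, the kinase that promotes mitotic entry, centrosome maturation and cytokinesis, varied little. Its level was 0.67 in tumour 646, 0.11 in the median tumour and -0.53 in tumour 660 (SE 0.20, F of 3.14, adjusted p 0.0164, limma). Tumour 649 lay level with 646, and 8 of its 210 contrasts passed. All 20 steps between neighbours in the order were below the array SD of 0.287, so only the ends of the order are told apart.

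Bub1, the checkpoint kinase of the kinetochore, lay below 0 in all 21 tumours. It was -0.36 in tumour 639, -1.15 in the median tumour and -2.32 in tumour 644. Its array SD of 0.532 was the largest of the 8 genes, and its F of 1.95 did not pass (adjusted p 0.114, limma). The lowest tumour rests on discordant arrays, at -3.50 and -1.14. Without the second array of tumour 644 the gene passed, at 0.0125, and over the 13 other alternatives its adjusted p lay between 0.0341 and 0.250. Only 5 of its contrasts passed.

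Cdk1, the kinase that starts mitosis, was 0.41 in tumour 646, -0.37 in the median tumour and -1.04 in tumour 667 (SE 0.20). The arrays of tumour 667 read -1.08 and -1.01, and those of tumour 646 read 0.49 and 0.33. Tumours 646, 649 and 647 were above 0 and the other 18 below. These 3 are among the 5 tumours whose median of mesenchymal markers lay above 0, at 2.01, 0.96 and 0.98, with epithelial medians of -0.88, -0.44 and -1.11. The others of the 5, tumours 644 and 673, had mesenchymal medians of 1.31 and 0.83 and Cdk1 at -0.51 and -0.04. Tumours 646 and 649 were also the highest for Plk1 and for Top2a. The part of cell type in Cdk1 was not tested. The F of 2.64 passed at 0.0357 (limma), but in 14 of the 42 fits that left out 1 array it did not, with an adjusted p of up to 0.0905. All 4 of its called contrasts involved tumour 667.

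Birc5, which encodes survivin, a chromosomal passenger protein also known as an inhibitor of apoptosis, was 0.84 in tumour 669, 0.20 in the median tumour and -1.09 in tumour 656. A gap of 0.91 set tumour 656 below the others, which was wider than the array SD of 0.310. The F was 3.52 with an adjusted p of 0.00917 (limma). All 19 of its called contrasts involved tumour 656, and without that tumour, where 44.3% of all genes passed, the gene did not (0.0573). The arrays of 656 read -1.72 and -0.46.

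Top2a, the decatenating topoisomerase and the target of anthracyclines and etoposide, was 0.33 in tumour 646, -0.55 in the median tumour and -1.95 in tumour 662. Its F of 2.21 did not pass (adjusted p 0.0729, limma), and its 6 called contrasts all involved tumour 662. The arrays of 662 read -0.90 and -3.01. Without its first array the gene passed at 0.00357.

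Mki67, the marker of cycling cells, was 0.08 in tumour 669, -0.26 in the median tumour and -0.87 in tumour 660. Its range of 0.95 was the narrowest of the 8 genes and its F of 0.965 did not pass (adjusted p 0.576, limma). None of its 210 contrasts passed. Over 13 alternatives the adjusted p lay between 0.252 and 0.828. Its whole range stayed below the difference of 1 that the rule for contrasts asks for, so a smaller difference between tumours could not be called.

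Between members, 46 relations were computed from 28 pairs, within the sets of tumours where a gene's levels fell into more than 1 cluster. Of these, 1 passed an adjusted p of 0.05 by Pearson's r and 5 by Spearman's rho, and 13 had an unadjusted p under 0.05 by r. Plk1 and Bub1 had an r of 0.610 (permutation test over 21 tumours, adjusted p 0.0719) and a rho of 0.758 (0.0069). Without the 2 tumours farthest from the median of Bub1, r was 0.752, and within the 8 tumours of the fourth slide run it was 0.641. Plk1 and Cdk1 had an r of 0.586 (adjusted p 0.0719) and a rho of 0.618 (0.0304). Plk1 and Top2a had 0.518 (0.117) and 0.643 (0.0304), and Bub1 and Cdk1 had 0.50 (0.121) and 0.623 (0.0304). Within the fourth run these 3 pairs had an r of 0.748, 0.872 and 0.791, and without the 2 farthest tumours 0.640, 0.524 and 0.508. Both genes of a pair were read on the same arrays, and the part of array error that they share was not tested.

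The pair that passed by r was Aurka and Birc5 in the 13 tumours of low Aurka. There r was 0.846 (permutation test, adjusted p 0.00506), rho was 0.831 (0.0138), and r was 0.830 without the 2 farthest tumours and 0.824 in the 7 tumours of the fourth run. Without tumour 656 r was 0.777 with an adjusted p of 0.0883, and rho was 0.785 with 0.0455, so that tumour decides the call by r and not that by rho. In the 8 tumours of high Aurka r was -0.40 (exact permutation test, adjusted p 0.565). The difference between the sets was not tested. Tumours were split here by the clusters of Aurka alone. The 13 hold tumours of all 3 Birc5 clusters, so the r of 0.846 spans steps between clusters of Birc5.

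The median r over all 28 pairs was 0.183, beside 0.0481 over all pairs of the 6546 genes measured in every tumour. Without the Kif11 probe it was 0.276, and without Aurka as well it was 0.435 over 15 pairs. This value moved with the centring. With the values as deposited, centred on each array's own median or quantile normalised, the median over 28 pairs was 0.589, 0.497 and 0.438, and that over all gene pairs was 0.290, 0.102 and 0.102.

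The members were next set against 98 other textbook genes of G2 and M, of which 71 were tested. The median of those 71 ranged from -0.02 in tumour 646 to -0.94 in tumour 660. Plk1 followed it with an r of 0.784 (permutation test over 21 tumours, adjusted p 0.0055 over 137 relations) and a rho of 0.861 (0.0014). Without the 2 farthest tumours r was 0.781, and in the fourth slide run it was 0.571. Bub1 followed it with 0.735 (0.0116), a rho of 0.791 (0.0021), and 0.821 and 0.809 in those checks. Mki67 had 0.675 (0.0402), a rho of 0.675 (0.0449), and 0.609 and 0.411. The members and the G2/M median were read on the same 2 arrays of each tumour, and Bub1 and Mki67 did not pass the F test. The permutation test does not separate error shared by those arrays from differences between tumours, and its part was not tested. The ranks that follow are descriptions. Tumours 660 and 664 were among the 3 lowest for Bub1 and for Mki67, and 660 was also the lowest for Plk1 and for the G2/M median. Tumour 639 was among the 4 highest for all 3 genes and for the G2/M median. How many of all genes follow the G2/M median as closely was not counted. With the mean of the Gapdh control spots, r was -0.381 for Plk1, -0.205 for Bub1 and -0.566 for Mki67. The part of the control spots' shift in these relations was not tested.

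For Plk1 the call held in every alternative and in every fit that left out 1 array. That of Bub1 was lost without the second array of tumour 644 (r of 0.556, adjusted p 0.105). That of Mki67 was lost in 17 of the 42 fits without 1 array, with slide run as a block (0.569, adjusted p 0.214) and where both arrays of all tumours had to be measured (0.596, 0.0603). Cdk1 missed the threshold, with an r of 0.621 (adjusted p 0.0666), but passed in 6 of the 13 alternatives, among them slide run as a block (0.782, 0.0151). Top2a missed it by r with 0.526 (0.110), passed by rho with 0.639 (0.0462), and passed by r in 3 of the 13 alternatives. Cdk1 also passed by rho with the median of the arrest genes, at 0.718 in 17 tumours (0.0460). Plk1 had an r of 0.621 with the arrest median and of 0.537 with the G1/S median, each in 17 tumours. Neither passed (permutation test, adjusted p 0.0856 and 0.156). Of the genes most like each member, Bub1 had Cdc25c (0.788) and Kif2c (0.774), Plk1 had Ppp2r1a (0.829) and Ndc80 (0.826), Top2a had Eloc (0.812) and Prc1 (0.769), and Cdk1 had Anln (0.869) and Snx4 (0.859). Of these, Cdc25c, Kif2c, Ndc80, Prc1 and Anln are in the list of other G2/M genes.

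Of the 20 nearest genes, the number in that list or among the members was 4 for Plk1 and for Top2a, 3 for Bub1 and for Cdk1, 1 for Mki67 and 0 for Aurka, Birc5 and Kif11. Such genes make up 1.04% of all genes tested. Mki67 was most like Ttf1 (0.779), Emc7 (0.767) and Polg (0.762). Birc5 was most like Psmc2 (0.901), a proteasome ATPase, Ddx41 (0.862) and Cope (0.833). The third nearest were Map2k3 for Bub1 (0.751), Tnfaip8 for Plk1 (0.824), Cks1b for Top2a (0.738) and Hdac1 for Cdk1 (0.834).

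**Figure D5:**
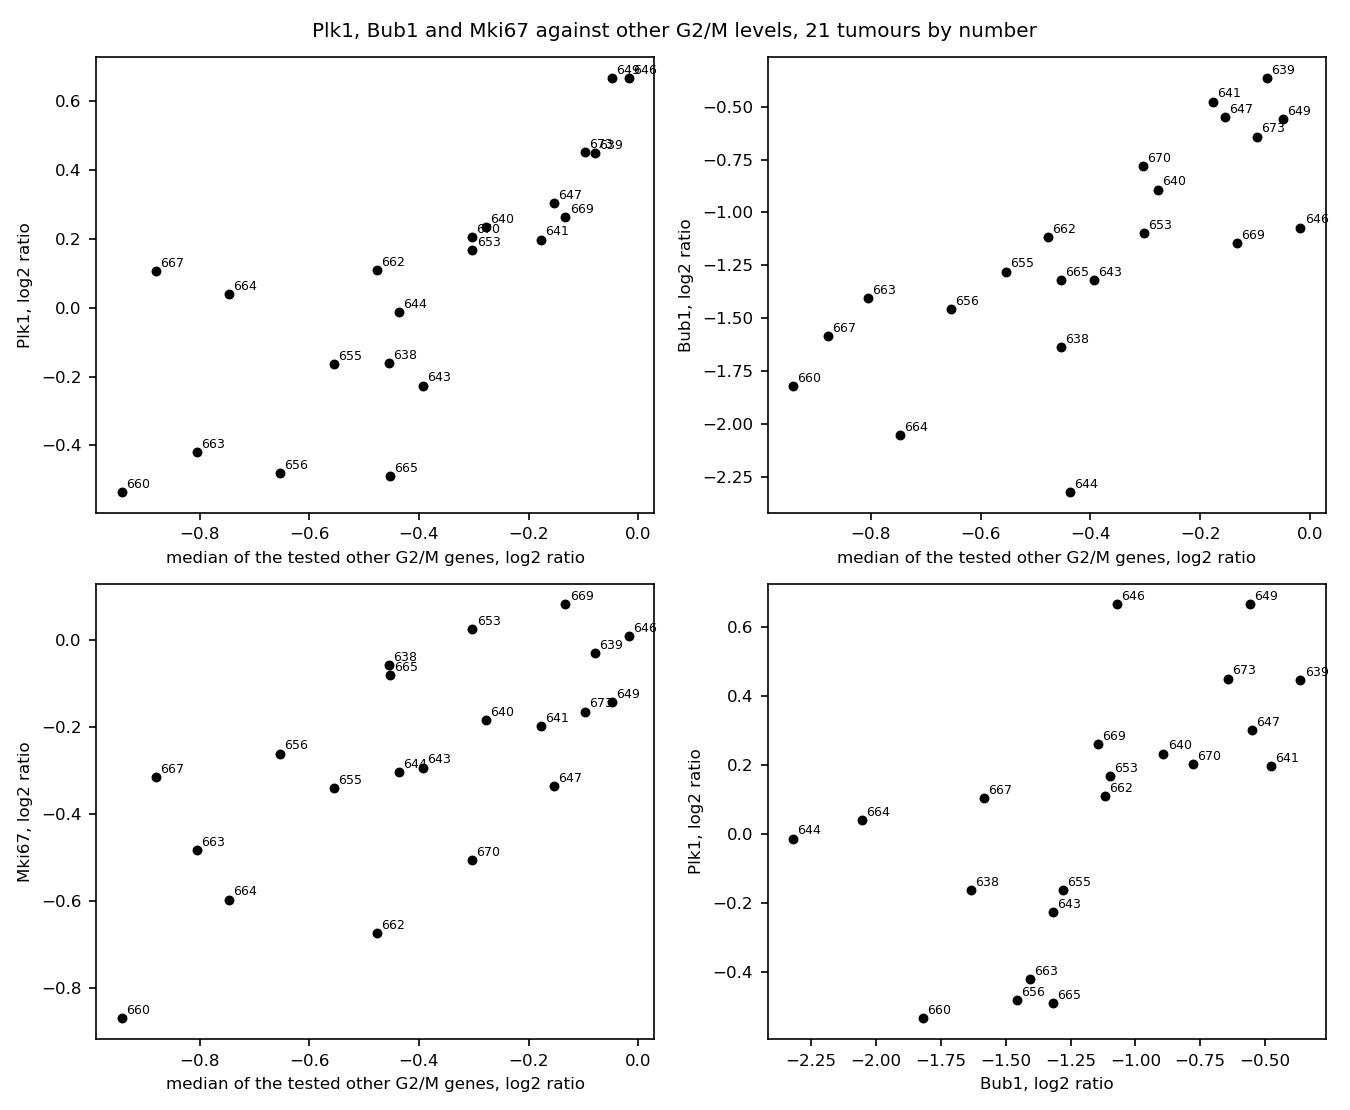
Tumour means of Plk1, Bub1 and Mki67 (y axis, log2 ratio) against the median of the other G2/M genes tested (x axis, log2 ratio), and in the last panel Plk1 against Bub1, with 1 point for each of the 21 tumours marked by its number. Tumour 660 lies at the lower left of all 3 panels on the G2/M median, and 646 or 649 at the right.

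Among the 71 other G2/M genes, 27 (38.03%) differed between tumours, against 42.5% of all genes. At an unadjusted p under 0.05 it was 34, and 52.2% of all genes. Widest was Gtse1, a microtubule-binding protein of G2, from 0.70 in tumour 673 to -3.70 in tumour 660 (SE 0.59, adjusted p 0.0234, limma). Sgo1, the protector of centromeric cohesion, ran from 0.88 in 638 to -3.43 in 664 (0.0336), and Pkmyt1, an inhibitory kinase of Cdk1, from 0.09 in 646 to -3.72 in 656 (0.0372). Anln, a scaffold of the cleavage furrow and the gene most like Cdk1, ran from 0.80 in 649 to -3.28 in 667 (SE 0.28, 1.9e-06). Mad1l1, a checkpoint protein, ran from 1.62 in 669 to -1.87 in 663 (0.0177). Bora, a cofactor of Aurora A, and Kif20b, a kinesin, had the largest p (0.878 and 0.872).

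Of 49 G1/S genes, 12 (24.5%) differed between tumours, also below the 42.5% of all genes, and 19 did so at an unadjusted p. Ccnd1, cyclin D1, ran from 1.90 in tumour 649 to -2.33 in 663 (adjusted p 1.2e-08, limma). Cdc25a, the phosphatase that activates Cdk2, ran from 3.95 in 660 to -2.59 in 656 (0.0218), and Orc2, of the origin recognition complex, from 1.10 in 669 to -3.90 in 663 (0.022). The clamp loader subunits Rfc3 and Rfc4 went from 0.17 in 639 to -2.29 in 667 (0.00615) and from 0.82 in 667 to -1.60 in 673 (1.4e-06). Gins2 and E2f3 had the largest p (0.931 and 0.794).

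Of 21 genes of cell cycle arrest, 13 (61.9%) differed between tumours, against 42.5% of all genes, and 16 did so at an unadjusted p. Gadd45a, a stress response gene, ran from 2.10 in tumour 644 to -5.36 in 667 (adjusted p 4.0e-05, limma). Cdkn2d, an inhibitor of Cdk4 and Cdk6, ran from -0.12 in 649 to -5.20 in 667 (0.00626), and Ccng2, cyclin G2, from -0.16 in 649 to -5.78 in 664 (0.0137). Sfn, 14-3-3 sigma, ran from 4.64 in 644 to -1.21 in 663 (0.0144), and Lin37, a subunit of DREAM, from 1.69 in 660 to -5.99 in 664 (0.0167). Rb1 and E2f5 had the largest p (0.523 and 0.492). The median range of this list, 3.68, was above that of all genes, 2.75, and that of the other G2/M genes, 2.16, was below it.

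Markers of cell types differed widely between the same tumours. The median of 7 epithelial markers was highest at 3.23 in tumour 667 and lowest at -1.11 in 647. That of 7 mesenchymal markers was highest at 2.01 in 646 and lowest at -3.65 in 656, and that of 5 macrophage markers ran from 1.62 in 649 to -2.94 in 663. Myc ran from 4.04 in 667 to -0.68 in 646. The levels of Myc and of these 3 lists each fell into clusters, with tumours 644, 646, 647, 649 and 673 forming one of them in all 4 cases, so no correlation over all tumours is given. Those 5 tumours are too few for one of their own.

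The tumours were split by the clusters of the member where it had more than 1, and otherwise by those of Myc or the list. Where neither had clusters, all tumours with a value were used. In parts of at least 6 tumours, no member's relation to Myc or a marker list passed an adjusted p of 0.05 by Pearson's r. By rho, 4 to marker lists passed. Bub1 and the macrophage median had a rho of 0.709 in 16 tumours (permutation test, adjusted p 0.0463; r 0.607, 0.110), and r was 0.440 without the 2 farthest tumours. Top2a and the mesenchymal median had a rho of 0.917 in 9 tumours (exact permutation test, adjusted p 0.0449; r 0.521, 0.447). In the 7 tumours of another mesenchymal cluster its rho was -0.321 (exact permutation test, adjusted p 0.831) and its r -0.462 (0.644). The Kif11 probe had a rho of -0.80 with the epithelial median (permutation test, adjusted p 0.0463). With the 1 red blood cell gene tested, Hba-a1, its rho was 0.811 (permutation test, 0.0462). Both were taken in 12 tumours that form a cluster of the Kif11 probe. These include 644, 646, 647, 649 and 673, so the epithelial value spans the step between clusters of that median. In the 9 tumours of the probe's other cluster, rho was 0.10 with the epithelial median (exact permutation test, adjusted p 0.955). With Hba-a1 it was -0.517 there (exact permutation test, 0.461). Cdk1 and Myc had an r of -0.46 in 14 tumours (permutation test, adjusted p 0.359), and Plk1 and Myc had -0.28 (0.660). Aurka and Myc had -0.10 in the 13 tumours of low Aurka (adjusted p 0.881) and 0.07 in the 8 of high Aurka (exact permutation test, 0.926). The 13 include all 5 tumours of the low Myc cluster, so the first value spans a step between clusters of Myc. In all, 3 of the 137 relations passed by r, 9 by rho, and 26 had an unadjusted p under 0.05 by r. Of the other marker lists, 3 of 6 endothelial, 2 of 7 T cell, 2 of 5 adipocyte, 1 of 5 B cell and 1 of 5 red blood cell genes were tested, too few for a firm list level. The part of cell composition in the members' levels was not tested.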

How the data were processed

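RNA of 21 tumours was measured on 42 two-colour oligonucleotide arrays, 2 of opposite dye orientation for each tumour, per the labels. The deposited values are log2 ratios per probe, 1 column an array, whose scale was read from the values; for background correction, normalization and the dye of each channel, the sources used here give nothing. A repeated top value of 16.61 (2.14% of values) was set to missing.

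The arrays of a tumour were taken as opposed and turned by the sign of the first eigenvector of the correlations among tumour differences. Each array was centred on its median over 4226 probes measured on all arrays, which had lain between -1.07 and 0.737. Genes needed both arrays in at least 15 tumours, and probes of a gene were averaged. Of 22800 probes, 16874 carried 1 symbol, 134 several and 5792 none; a current gene was found for 16196. limma 3.58.1 (R 4.3.3) fitted tumour and dye orientation, with a moderated F over tumours and Benjamini-Hochberg adjustment. Contrasts used the same variances with adjustment within each contrast. Clusters came from mclust 6.1.1 (1 to 3 components by BIC), and correlations had two-sided permutation tests with 100000 resamples, exact below 10 tumours. The F test was tested on simulated data.

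Named are all members, from each cell cycle list the 5 widest genes past the threshold and the 2 of largest p, the 3 genes most like each member, and Myc. The members, the lists, the centring and the dye term were chosen with earlier results of these data known. The chromosome neighbours, the Gapdh check and the clusters of the levels other than members were added after seeing values. Alternatives concerned centring, normalization, the dye term, slide run, the top value, missing values, dim probes, probes or genes, turning, tumour 656 and single arrays. RefSeq tables of GRCm38.p6 gave names, gene order and promoters.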

Additional observations from a re-analysis of the deposited data

How the results depend on the processing

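No paired analysis was possible because the labels give no replicate numbers that groups share. No result reversed its direction under any alternative, but F tests and counts have no direction that could reverse. Of 8 members, 5 passed the F test in the main setting, and 2 did so with each array centred on its own median, with quantile normalization or with slide run as a block. Without the Kif11 probe these were 4 of 7 and 1 of 7. With the values as deposited, not centred, it was 6 of 7, beside 45.1% of all genes. The number of genes that differed was 3245, against 2058 on own medians, 1685 with quantile normalization, 2001 without the dye term and 1927 where both arrays of all tumours had to be measured, where fewer genes were tested. Other G2/M genes that differed were 27, and 11 with quantile normalization. G1/S genes were 12, and 6 with quantile normalization and 7 without the dye term. Arrest genes were 13, and 8 with quantile normalization and 6 with all tumours measured. Member relations past the threshold were 1, and 19 as deposited, 18 on own medians, 22 with quantile normalization, 2 with slide run as a block, 0 with all tumours measured and 0 without tumour 656. The median correlation of member pairs was 0.183, and 0.589, 0.497 and 0.438 in the first 3 of these settings. Relations to other levels past the threshold were 3, and 43, 28 and 29 in those settings and 6 with the top value kept. Called member contrasts were 217, and 100 with quantile normalization and 123 with all tumours measured, where Aurka was not tested; they were not run by probe or with the slide run block. Leaving out 1 array at a time gave 2779 to 3791 genes, 4 to 6 members, 22 to 39 other G2/M, 12 to 16 G1/S and 12 to 15 arrest genes, 0 to 5 member relations, a median correlation of 0.142 to 0.231, 1 to 10 relations to other levels and 183 to 203 member contrasts. The counts of contrasts in these fits lie below the 217 of the main setting, where a contrast asks for both arrays of both tumours. Except where a smaller set of genes, tumours or arrays is named, the cause was not tested.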
